A study of Mus musculus with 3 samples.

Results

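The IL-27 and IL-12 family comprises the secreted heterodimers IL-27, IL-12, IL-23 and IL-35 and the receptor chains that bind them. Its 9 genes were taken by symbol from the expression table: the ligand subunits Il27 (p28), Ebi3, Il12a (p35), Il12b (p40) and Il23a (p19), and the receptor chains Il27ra, Il6st (gp130), Il12rb1 and Il12rb2. Of these 9 genes, 8 were measured, among 16072 named genes in all. Il12b was not listed among them, so its level was not analysed and only its promoter window is given. RNA was sequenced from Ly6G+ myeloid cells of the bone marrow (BM) of C57BL/6 mice, each already bearing subcutaneous B16.F10 melanoma cells, injected 1 week ahead of the vector. Mice given either vector were compared: AAV-Ctrl mice (2 libraries), which carried an empty adeno-associated virus vector, and AAV-IL-27 mice (1 library), whose vector encodes mouse EBI3 and p28 joined as 1 secreted chain under the ubiquitous CAG promoter. The vectors were injected into muscle and cells were taken 3 weeks later, in a study that used mice aged 6 to 10 weeks. The study calls the cells both Ly6G+ and Gr-1+, Gr-1 antibodies being ones that also bind Ly6G.

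In this family, subunits are shared. EBI3 pairs with p28 to form IL-27 and with p35 to form IL-35, and p40 pairs with p35 to form IL-12 and with p19 to form IL-23. IL-27 signals through IL-27Rα and gp130, a chain also used by the receptors for IL-6, IL-11, oncostatin M and leukaemia inhibitory factor, whereas IL-12 signals through IL-12Rβ1 and IL-12Rβ2. Receptor engagement activates Janus kinases, which phosphorylate STAT transcription factors, and the ligand subunits are classically made by activated macrophages and dendritic cells. The comparison asks which of these genes Ly6G+ cells expressed and how their levels differed in a mouse exposed to exogenous IL-27.

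Levels are FPKM values (fragments per length of transcript, scaled to all mapped fragments of the library), which compare genes per length. The values are not counts. Judging by the spacing of low FPKM values, AAV-Ctrl 1 held about 19300000 fragments, AAV-Ctrl 2 about 19400000 and AAV-IL-27 about 19600000. The neutrophil genes S100a9, S100a8, Ngp and Ly6g were abundant in every library, with S100a9 at 73508.41 and 71786.08 FPKM in AAV-Ctrl and 68764.99 FPKM in AAV-IL-27. Summed over 11 neutrophil genes, the AAV-IL-27 library stood at 95.9% of the AAV-Ctrl mean, a sum carried by S100a9, S100a8 and Ngp. Ly6g itself was at 711.76 and 766.11 FPKM in the controls and 586.29 FPKM under AAV-IL-27 (79.3%, limma adjusted p = 0.0537), and Ltf was at 86.7%. Sums over the markers of several other cell types were far lower in the AAV-IL-27 library, as given beside the results they touch. Differences were taken on the log2(FPKM + 1) scale, AAV-IL-27 minus the control mean, which makes changes of low genes look smaller than they are. In these bulk samples, fewer cells of a type and less RNA per cell cannot be told apart.

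To show the regulatory sequence of the receptor-like subunits, the 250 bases before the start sites of Ebi3, the most abundant member, and of Il12b, its p40 relative, were read from the RefSeq table for GRCm38.p6, the build of every position given here. The Ebi3 window lies at chr17:55952373-55952622 and the Il12b window at chr11:44399813-44400062, both on the plus strand and written 5′ to 3′, with capitals marking the only motif match.
Ebi3: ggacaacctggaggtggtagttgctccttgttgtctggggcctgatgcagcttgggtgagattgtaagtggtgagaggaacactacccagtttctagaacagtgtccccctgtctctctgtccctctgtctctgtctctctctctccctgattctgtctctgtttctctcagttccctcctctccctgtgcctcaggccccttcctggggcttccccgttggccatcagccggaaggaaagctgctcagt
Il12b: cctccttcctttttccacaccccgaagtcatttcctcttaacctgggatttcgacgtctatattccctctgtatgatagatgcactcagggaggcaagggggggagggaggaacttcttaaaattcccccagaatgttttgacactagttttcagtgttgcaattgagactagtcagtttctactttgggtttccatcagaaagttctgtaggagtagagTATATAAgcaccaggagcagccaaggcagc
The capitals in the Il12b window mark TATATAA, a match to the TATA box motif TATANAA that begins 30 bases before the start (position -30), and 10.4% of 32851 promoter windows of this length hold such a match on either strand. Neither window, on either strand, held GAGGAAGT (a PU.1-type ETS core, in 2.44% of all windows), a kappaB motif (GGGA and TTTCC with 1 base between them, 0.356%), an interferon response element (GAAA repeated after 2 bases, 2.98%) or TTGCNNAA (C/EBP, 9.56%). The windows of Il12a, Il6st and Il12rb2 held no match to any of these 5 motifs either. The TATA motif was added after the others had been searched. Each motif was searched as a single fixed string with no mismatch allowed. Sites that depart from these strings would be missed, so the lack of a match does not show that a site is absent.

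Ebi3 was by far the most abundant member. Ebi3 (NCBI Gene 50498, plus strand of chromosome 17, bases 55952623 to 55957022) encodes the soluble receptor-like subunit of IL-27 and IL-35. Its level was 106.95 FPKM in AAV-Ctrl 1, 109.61 FPKM in AAV-Ctrl 2 and 127.45 FPKM in AAV-IL-27. These levels placed Ebi3 above 95.9%, 96.1% and 96.7% of named genes in the respective libraries. The AAV-IL-27 level lay above both AAV-Ctrl levels, at 118% of their mean (108 ± 1.88 FPKM, SD, n = 2), a log2 difference of 0.23 (SE 0.068). In the limma fit over 9130 genes, whose spread comes from the AAV-Ctrl libraries, this difference did not pass the threshold after Benjamini-Hochberg adjustment (adjusted p = 0.0897). Across 7 alternative fits the adjusted p lay between 0.0539 and 0.238. The AAV-Ctrl libraries differed from each other by 0.035. The estimated fragments, 2238 and 2305 in the controls and 2708 under AAV-IL-27, had 95% Poisson intervals that did not overlap between the groups. Such intervals cover counting error only, and the share of all genes with separate intervals was not computed. An antisense transcript, Gm16712, shares 23.4% of the annotated exon bases of Ebi3. It was listed at 8.49, 10.74 and 12.63 FPKM in the controls and the AAV-IL-27 library, in that order, and its part in the Ebi3 value was not tested. Per the labels the cDNA carried a dUTP strand mark, but whether counting used strand is not given in the sources used here.

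Il27 (NCBI Gene 246779, minus strand of chromosome 7, bases 126589009 to 126595035) encodes p28, the helical subunit that gives IL-27 its identity. It was expressed at a much lower level than its partner, at 4.21 FPKM in AAV-Ctrl 1, 5.69 FPKM in AAV-Ctrl 2 and 4.77 FPKM in AAV-IL-27. The AAV-IL-27 level lay between the AAV-Ctrl levels (mean 4.95 ± 1.05 FPKM, SD, n = 2), with an estimated 89 fragments against 77 and 105. The log2 difference was -0.03 (SE 0.17, limma adjusted p = 0.931). The FPKM ratio of Ebi3 to Il27 was 25.4 and 19.3 in the controls and 26.7 under AAV-IL-27, so that Ebi3 exceeded p28 transcripts in each library. Although the vector encodes both subunits, the Il27 level in BM Ly6G+ cells was not outside the AAV-Ctrl range. The vector was placed in muscle, so this level checks neither the label nor the delivery. Exons of Apobr, on the opposite strand, share 10.1% of the exon bases of Il27, and Apobr was far more abundant (199.18, 197.73 and 209.71 FPKM in the controls and the AAV-IL-27 library, in that order). Its part in the Il27 value was not tested.

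**Figure D1:**
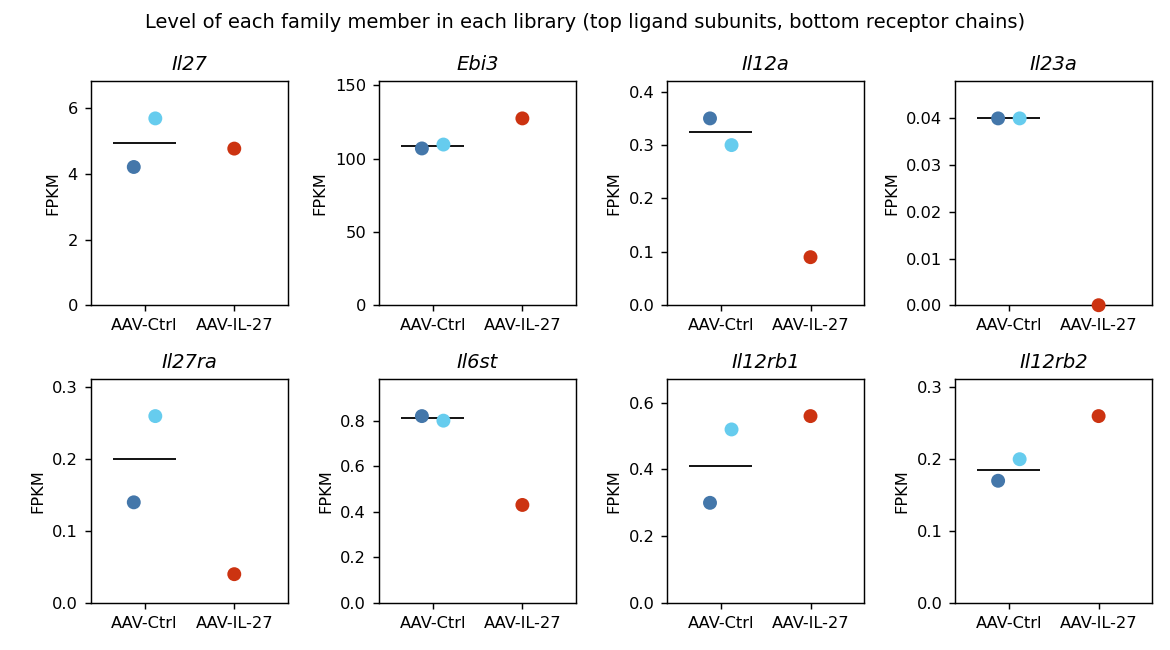
FPKM of the 8 measured members in each library, 1 panel per gene with a linear axis from 0 (mid blue AAV-Ctrl 1, light blue AAV-Ctrl 2, red AAV-IL-27, line at the AAV-Ctrl mean). Ebi3 stood at 106.95 to 127.45 FPKM and Il27 at 4.21 to 5.69 FPKM, while the other 6 genes remained under 1 FPKM in every library.

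The remaining ligand subunits were close to the limit of detection. Il12a (NCBI Gene 16159, plus strand of chromosome 3, bases 68690644 to 68698550), which encodes the p35 subunit of IL-12 and IL-35, was listed at 0.35 FPKM in AAV-Ctrl 1, 0.3 FPKM in AAV-Ctrl 2 and 0.09 FPKM in AAV-IL-27. The AAV-IL-27 level was 27.7% of the AAV-Ctrl mean and lay below both, but it rested on an estimated 2 fragments (95% Poisson interval 0.242 to 7.22) against 8 (3.45 to 15.8) and 7 (2.81 to 14.4). These intervals overlap. In the limma fit without a filter on low values, over 16072 genes, Il12a had a p of 0.0202 and an adjusted p of 0.238. Il23a (NCBI Gene 83430, minus strand of chromosome 10, bases 128296140 to 128298084), which encodes the p19 subunit of IL-23, was listed at 0.04 FPKM in each control and at 0 under AAV-IL-27. That is an estimated 1 fragment in each AAV-Ctrl library, and the 0 allows up to 3 fragments, so no fold is given.

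The receptor chains for IL-27 were both low. Il27ra (NCBI Gene 50931, minus strand of chromosome 8, bases 84030286 to 84042600) encodes the ligand-specific chain, IL-27Rα. It was listed at 0.14 FPKM in AAV-Ctrl 1, 0.26 FPKM in AAV-Ctrl 2 and 0.04 FPKM in AAV-IL-27. The AAV-IL-27 level was 20.0% of the AAV-Ctrl mean, with a log2 difference of -0.20 against 0.14 between the AAV-Ctrl libraries. It rested on an estimated 2 fragments (0.242 to 7.22) against 7 (2.81 to 14.4) and 13 (6.92 to 22.2), and the interval of AAV-IL-27 overlaps both others. In the limma fit without a filter Il27ra had a p of 0.16 and an adjusted p of 0.399. Il6st (NCBI Gene 16195, plus strand of chromosome 13, bases 112464070 to 112506860) encodes gp130, the shared signal-transducing chain. It was at 0.82 FPKM in AAV-Ctrl 1, 0.8 FPKM in AAV-Ctrl 2 and 0.43 FPKM in AAV-IL-27. The AAV-Ctrl libraries were nearly equal, and the AAV-IL-27 level was 53.1% of their mean, a log2 difference of -0.34. Because its transcript is long, 8678 bases, these levels correspond to an estimated 136 (114 to 161), 134 (112 to 159) and 73 (57.2 to 91.8) fragments. These intervals do not overlap between the groups, but they cover counting error only. The share of all genes with separate intervals was not computed. Il6st lies under the mean of 1 FPKM required in the main fit. In the limma fit without that filter, over 16072 genes, its p was 0.0148 and its adjusted p 0.231, and the adjusted p was 0.174 with a minimum mean of 0.1 FPKM.

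The receptor chains for IL-12 lay in the same low range and were not lower in AAV-IL-27. Il12rb1 (NCBI Gene 16161, plus strand of chromosome 8, bases 70808360 to 70823542), a chain shared by the IL-12 and IL-23 receptors, was at 0.3 FPKM in AAV-Ctrl 1, 0.52 FPKM in AAV-Ctrl 2 and 0.56 FPKM in AAV-IL-27. The AAV-IL-27 level was just above the higher AAV-Ctrl level, and the log2 difference of 0.15 was smaller than the 0.23 between the AAV-Ctrl libraries. Its estimated fragments were 16, 28 and 31. Il12rb2 (NCBI Gene 16162, minus strand of chromosome 6, bases 67285986 to 67376293), the other chain of the IL-12 receptor, was at 0.17 FPKM in AAV-Ctrl 1, 0.2 FPKM in AAV-Ctrl 2 and 0.26 FPKM in AAV-IL-27. Its estimated 9, 11 and 14 fragments had intervals of 4.12 to 17.1, 5.49 to 19.7 and 7.65 to 23.5, which overlap. Exons of Serbp1, on the opposite strand, share 40.0% of the exon bases of Il12rb2, and Serbp1 was at 11.65, 10.63 and 9.38 FPKM in the controls and the AAV-IL-27 library, in that order. Reads of the 2 genes cannot be told apart there unless counting used strand, which is not given.

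**Figure D2:**
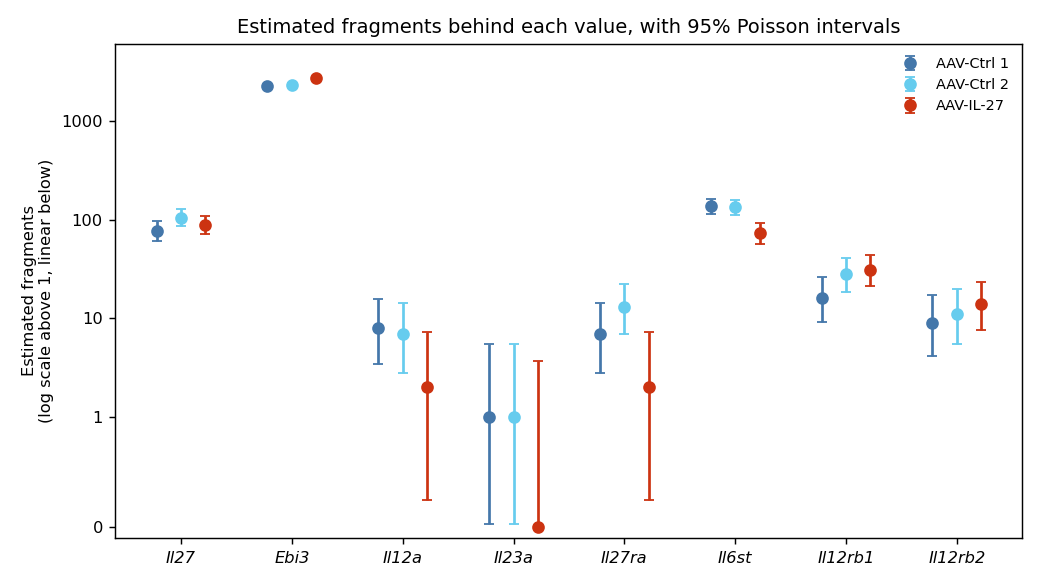
Estimated fragments behind each value (vertical axis logarithmic above 1 and linear below), with 95% Poisson intervals, for each member (horizontal axis) and library. Intervals of the AAV-IL-27 library are separate from both AAV-Ctrl intervals for Ebi3 (2708 fragments, above) and Il6st (73 fragments, below). They overlap at least 1 AAV-Ctrl interval for the other 6 genes. The intervals cover counting error only and were computed for the members alone, so no share over all genes is given.

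Ordered by mean level, the members ran Ebi3, Il27, Il6st, Il12rb1, Il12a, Il12rb2, Il27ra and Il23a. Ebi3, Il27 and Il6st were separated from each other in every library. From Il6st downwards neighbours overlapped over libraries. Il6st was above Il12rb1 in both AAV-Ctrl libraries and below it in AAV-IL-27, and Il12rb1 reached down to 0.3 FPKM while Il12a reached up to 0.35 FPKM. Il12a and Il12rb2 changed places in AAV-IL-27, and Il12rb2 and Il27ra spanned 0.17 to 0.26 FPKM and 0.04 to 0.26 FPKM. Il23a was the lowest member in each library. In the AAV-IL-27 library, 4 of the 8 members lay below both AAV-Ctrl libraries (Il6st, Il12a, Il27ra and Il23a), 3 lay above both (Ebi3, Il12rb1 and Il12rb2) and Il27 lay between them. Over all named genes, 41.8% lay below both and 29.6% above both. None of the 8 members was at least 1 log2 unit from each AAV-Ctrl library, a rule that called 1.33% of all named genes lower and 0.187% higher, and 2.32% and 0.307% of the 9130 genes with a mean of at least 1 FPKM. This depended on the pseudocount: with 0.1 in place of 1, Il12a was called lower, as were 6.15% of all named genes, and with 0.01, Il12a, Il27ra and Il23a were, as were 12.4%. Only Ebi3 and Il27 reached the mean of 1 FPKM, and 0 of these 2 passed the limma threshold. The fit called 7.65% of the 9130 genes lower and 2.84% higher. On the FPKM scale itself, 3 of the 6 members under that mean (Il12a, Il27ra and Il23a) were at or under 50% of each AAV-Ctrl library, as were 27.4% of the 6027 genes with a mean from 0.01 to under 1 FPKM. None of the 6 was at or over 200% of each AAV-Ctrl library, as were 7% of those genes. This rule was chosen after the values were seen. The exact permutation test of 1 library against 2 cannot go below p = 0.333 (one-sided) for any single gene.

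**Figure D3:**
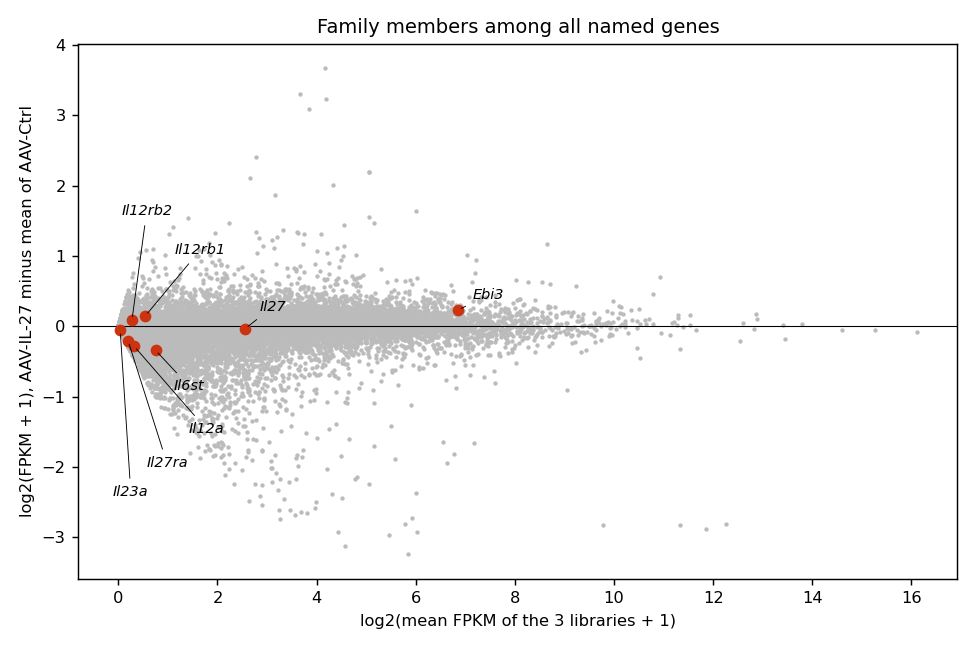
Log2 difference (vertical axis, AAV-IL-27 minus the AAV-Ctrl mean of log2(FPKM + 1)) against level (horizontal axis, log2 of the mean FPKM of the 3 libraries + 1) for 16072 named genes (grey), with the 8 members in red. The members lie within the grey band, from -0.34 for Il6st to 0.23 for Ebi3.

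By Euclidean distance of log2(FPKM + 1) over the 3 libraries, the genes closest to Ebi3 were Dynlt1c (0.054), Slc27a4 (0.078) and Sidt2 (0.081), and those closest to Il27 were Aaas (0.060), Fdft1 (0.10) and Mrps26 (0.11). With 3 libraries such likeness is loose: of 9129 genes compared, 76 lay within 0.25 of Ebi3 and 79 within 0.25 of Il27.

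The other ligands and receptors of the gp130 family were examined next, together with Il23r and Il31ra, whose proteins are related receptor chains that pair with IL-12Rβ1 and the oncostatin M receptor chain and not with gp130. Of 6 measured ligand-side genes, 1 had a mean of at least 1 FPKM, Osm, which encodes oncostatin M. Osm was at 90.61 FPKM in AAV-Ctrl 1, 92.47 FPKM in AAV-Ctrl 2 and 62.34 FPKM in AAV-IL-27, and it fell by 0.55 on the log2 scale (SE 0.069, limma adjusted p = 0.00707). Lif and Osmr, which encode leukaemia inhibitory factor and the oncostatin M receptor chain, were at no more than 0.04 FPKM and 0.02 FPKM. Clcf1, a cytokine of the same family, was at 0.67, 0.85 and 1.25 FPKM in the controls and the AAV-IL-27 library, in that order, and Cntf, which encodes ciliary neurotrophic factor, at 0.46, 0.35 and 0.11 FPKM. Of 6 measured receptor genes, Il6ra and Il11ra1 had a mean of at least 1 FPKM. Il6ra, which encodes the IL-6-binding chain that signals with gp130, was at 39.19 FPKM in AAV-Ctrl 1, 38.54 FPKM in AAV-Ctrl 2 and 49.6 FPKM in AAV-IL-27, and it rose by 0.34 on the log2 scale (SE 0.073, limma adjusted p = 0.0369). Without the mean-variance trend, limma gave Il6ra an adjusted p of 0.0974. The FPKM ratio of Il6ra to Il6st was 47.8 and 48.2 in the controls and 115 under AAV-IL-27. Il11ra1, the IL-11 receptor chain, was at 1.88, 1.86 and 1.9 FPKM, Lifr, the leukaemia inhibitory factor receptor chain, at 0.25, 0.43 and 0.31 FPKM, and the IL-23 receptor gene Il23r was listed at 0 in each control and at 0.09 FPKM under AAV-IL-27.

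The kinases and STATs downstream of the receptors were well expressed. Jak1 (122.21 and 121.5 FPKM in AAV-Ctrl, 131.85 FPKM in AAV-IL-27) and Stat3 (82.62 and 76.56 FPKM in AAV-Ctrl, 76.87 FPKM in AAV-IL-27) were the most abundant of the 12 signalling genes. Among the 12 genes, 1 rose and 1 fell, beside 2.84% and 7.65% of all 9130 genes tested. Both encode feedback inhibitors of JAK-STAT signalling, and both calls were lost in limma without the filter on low values (adjusted p of 0.231 or above). Socs1 was at 3.35 FPKM in AAV-Ctrl 1, 3.55 FPKM in AAV-Ctrl 2 and 6.97 FPKM in AAV-IL-27, and rose by 0.84 (SE 0.12, limma adjusted p = 0.00929). Socs3, whose protein binds gp130, was at 49.23 FPKM in AAV-Ctrl 1, 35.52 FPKM in AAV-Ctrl 2 and 19.14 FPKM in AAV-IL-27, and fell by 1.09 on the log2 scale (SE 0.18, limma adjusted p = 0.0163). The AAV-Ctrl libraries differed from each other in Socs3, by -0.46.

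Of 9 measured effector genes of IL-27 and IL-12, 4 were tested, 1 rose and 1 fell, beside 2.84% and 7.65% of the 9130 genes. Cd274, which encodes PD-L1, was at 5.44 FPKM in AAV-Ctrl 1, 5.62 FPKM in AAV-Ctrl 2 and 15.92 FPKM in AAV-IL-27, and rose by 1.37 (SE 0.10, limma adjusted p = 0.0012). Maf, a transcription factor of macrophages and of IL-10-producing T cells, was at 5.68 FPKM in AAV-Ctrl 1, 4.98 FPKM in AAV-Ctrl 2 and 1.74 FPKM in AAV-IL-27, and fell by 1.21 on the log2 scale (SE 0.13, limma adjusted p = 0.00396). Irf1 (84.16, 86.04 and 103.53 FPKM) and Il18bp (38.04, 41.08 and 45.39 FPKM) did not pass, and Ifng, which encodes the classical product of IL-12 signalling, was at no more than 0.05 FPKM. Among 9 genes that induce the ligand subunits, Irf8, a transcription factor of the monocyte and dendritic cell lineages, was at 7.49 FPKM in AAV-Ctrl 1, 7.89 FPKM in AAV-Ctrl 2 and 4.66 FPKM in AAV-IL-27 and fell by 0.62 on the log2 scale (SE 0.11, limma adjusted p = 0.0195). The other 8, among them Myd88 (135.48, 124.1 and 122.82 FPKM), Irf7 (59.06, 82.02 and 97.36 FPKM) and Tlr2 (72.58, 62.18 and 67.75 FPKM), did not pass. In all, 28 of 42 measured pathway genes were tested, of which 4 fell and 3 rose, against 7.65% and 2.84% of the 9130 genes. By the rule of 1 log2 unit from each AAV-Ctrl library, 1 was lower (Maf) and 1 higher (Cd274), against 2.32% and 0.307%. The lists were chosen with earlier results of these data known, so these counts cannot show whether the lists differ from other genes. The median difference was -0.55 for the ligand list (1 gene tested), 0.18 for the receptor list (2 genes), 0.11 for signalling, 0.24 for effectors and 0.01 for inducers, beside -0.01 over the 9130 genes. All 7 limma calls, like every other call of the fit, were lost when genes with a mean under 1 FPKM were added to it (adjusted p of 0.231 or above without a filter in limma, where 0 of 16072 genes passed and 3041 had an unadjusted p under 0.05). The fit assumes that the AAV-IL-27 library varies as the AAV-Ctrl libraries do.

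**Figure D4:**
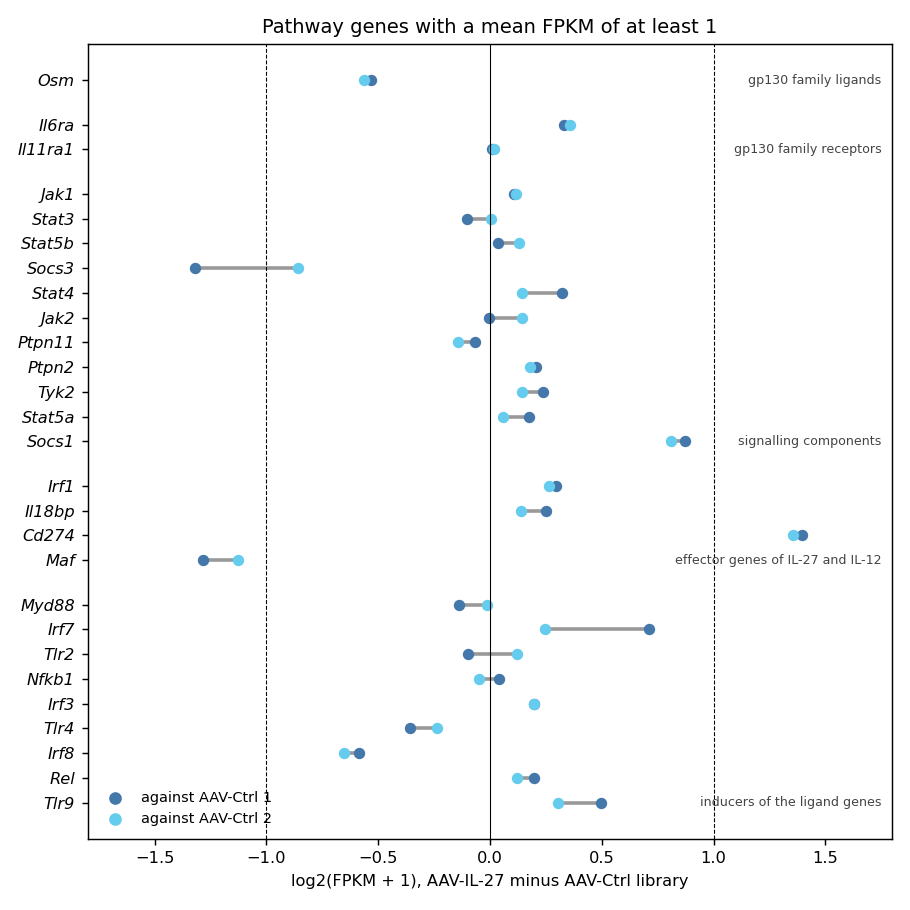
Difference of log2(FPKM + 1) between the AAV-IL-27 library and each AAV-Ctrl library (horizontal axis, 2 points joined per gene) for 27 of the 28 tested pathway genes, grouped by list with the list named beside its lowest gene. Dashed lines mark 1 log2 unit, beyond which both points lie for Cd274 (above) and Maf (below) alone.

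Markers of other cell types differed in the same library. The summed level of 11 macrophage genes, led by Slc40a1, C1qa and C1qc, was 775 and 792 FPKM in AAV-Ctrl and 294 FPKM in AAV-IL-27 (37.5% of the AAV-Ctrl mean), with all 11 below both AAV-Ctrl libraries. That of 10 B and plasma cell genes, led by Cd79a, Jchain and Cd79b, was 31.7 and 45.1 FPKM in AAV-Ctrl and 11.9 FPKM in AAV-IL-27 (30.9%), with 8 of the 10 below both and Tnfrsf17 listed at 0 in each library. Sums over stroma and endothelium (9 genes led by Pecam1, Stab2 and Col1a1, 55.4%), megakaryocytes (5 genes led by Ppbp, Pf4 and Gp1bb, 17.4%) and erythroid cells (8 genes led by Hba-a1, Hbb-bt and Alas2, 13.9%) were also lower. The 11 measured T and NK cell genes, led by Cd3d, Cd4 and Nkg7, summed to 15.2 and 16.5 FPKM in the controls and 15.7 FPKM under AAV-IL-27. Single genes of this list differed in both directions, with 3 below both controls and 3 above both. Cd4 was among the lower ones, at 4.03 and 4.25 FPKM in the controls and 2.03 FPKM under AAV-IL-27. The 7 monocyte genes, led by Ly6c2, Csf1r and Ms4a6c, summed to 108% and 10 dendritic cell genes to 140% of the AAV-Ctrl mean. Ly6c2 and Csf1r (109% and 98.5%) carried the monocyte sum, while Ccr2, F13a1 and Ms4a6c stood at 174%, 156% and 152% and above both controls, with none past the limma threshold. The dendritic cell sum was carried by Itgax (17.28, 11.89 and 24.64 FPKM) and Bst2 (6.63, 12.72 and 11.19 FPKM), while Xcr1, Clec9a, Siglech, Flt3 and Zbtb46 stayed under 1 FPKM in each library. Of the 10 dendritic cell genes, 5 lay below both controls and 1, Itgax, above both, so the higher sum does not describe most of the list. Beside these values, Il6st was at 53.1%, Il12a at 27.7%, Il27ra at 20.0% and Maf at 32.6% of the AAV-Ctrl mean. Il27 was at 96.4%, Ebi3 at 118%, Il12rb1 at 137% and Il12rb2 at 141%. The part of these cells in the levels of Il6st, Il12a, Il27ra, Maf and Irf8 was not tested.

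**Figure D5:**
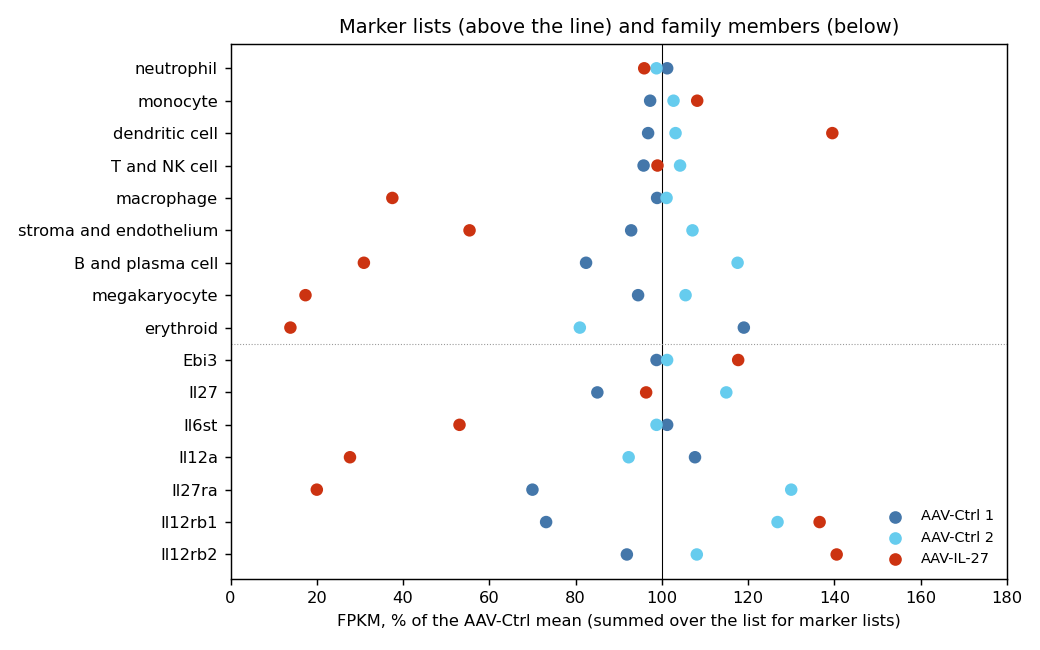
Level of each library as a percentage of the AAV-Ctrl mean (horizontal axis), summed over each marker list above the dotted line and for single members below it (Il23a, at 0 in AAV-IL-27, is left out). The red AAV-IL-27 points of macrophage (37.5%), B and plasma cell (30.9%), megakaryocyte (17.4%) and erythroid (13.9%) genes lie far to the left. Those of Il12a (27.7%) and Il27ra (20.0%), each from an estimated 2 fragments, do so too. Neutrophil genes (95.9%), Il27 (96.4%) and Ebi3 (118%) lie near 100, and Il12rb1 (137%) and Il12rb2 (141%) lie to the right.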

How the data were processed

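RNA-seq values of 3 libraries of BM Ly6G+ cells were analysed, 2 AAV-Ctrl and 1 AAV-IL-27, grouped by the sample labels. Per the labels, poly(A) RNA was selected, the cDNA carried a dUTP strand mark and was read on a DNBSEQ instrument, and the build was mm10. The authors deposited FPKM values to 2 decimals for 16073 rows, and the 1 row lacking a symbol was dropped. Aligner, counter and the criterion for listing a gene are not given in the sources used here. The table holds 1 further column of per-sample values that fits none of the listed samples, and it was left aside. The series design assigns 2 mice to AAV-Ctrl and 1 to AAV-IL-27 but counts 1 mouse more, and the study gives 2 per group. The p-values rest on spread between the AAV-Ctrl libraries alone, since 1 AAV-IL-27 library shows no spread of its own.

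Values were tested on log2(FPKM + 1) with limma 3.58.1 (mean-variance trend, R 4.3.3) over the 9130 genes with a mean of at least 1 FPKM, with Benjamini-Hochberg adjustment. The 1 residual degree of freedom comes from the AAV-Ctrl libraries. To it, limma adds a prior of 5.07 degrees of freedom, estimated over all genes tested. Each SE and p therefore draws mostly on the spread of other genes. A fold rule required at least 1 log2 unit from each AAV-Ctrl library. The members and gene lists (gp130 ligands and receptors, signalling, effectors, inducers, and cell type markers) were chosen with earlier results of these data known. The genes named are all members, the pathway genes past either rule, the 3 most abundant genes of each list, markers at 0 in all libraries and the 3 genes nearest to each member that passed the filter. Ly6g, Ltf, Ccr2, F13a1, Il31ra, Lif, Osmr, Il23r, Ifng, the low dendritic cell genes and the genes overlapping members were chosen after their values were seen. The values of 1 pathway gene are not reported here. Alternatives were pseudocounts of 0.1 and 0.01, other filters, 2 rescalings, no trend, a fold threshold of 0.5 and leaving out each AAV-Ctrl library.

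Depth was fitted over 10934 genes listed with a single RefSeq transcript of 1 length in GENCODE M21, less 70 nt. The fit placed 69.2%, 68.5% and 66.3% of 130, 111 and 101 low values within 0.1 of whole fragments, and the depth ranged from 17100000 to 23000000 with other subtractions. Fragment numbers are therefore approximate, and count models were not used. Promoters (5 members matched) and gene positions come from RefSeq GRCm38.p6, the same assembly as mm10. On simulated data over 9130 genes, limma recovered 92 of 100 genes changed by 2 log2 units and 90 of 100 changed by 3, with 4 false calls among 8930. The simulated AAV-IL-27 library was given the AAV-Ctrl spread, with spreads shuffled over genes. The simulation therefore cannot test whether the real AAV-IL-27 library varies as the AAV-Ctrl libraries do. Other software was matplotlib 3.10.9, scipy 1.17.1 and pandas 2.3.3 under Python 3.11.15.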

Additional observations from a re-analysis of the deposited data

How the results depend on the processing

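Ebi3 stayed between 0.22 and 0.27 on the log2 scale over 9 alternatives and passed the limma threshold in none of the 7 that gave a p. The difference of Il27, -0.03, took the opposite sign when libraries were rescaled to equal FPKM totals (0.00073, limma adjusted p 0.999) and again without AAV-Ctrl 2, lying between -0.21 and 0.15 with either AAV-Ctrl library left out. Among the members each limma fit held, none passed under the alternatives run. The fold rule, applied to all 8 measured members after the data were seen, called 0 with the other scalings, the threshold of 0.5 or either AAV-Ctrl library left out, but 1 lower with a pseudocount of 0.1 (Il12a) and 3 lower with 0.01 (Il12a, Il27ra and Il23a). Smaller pseudocounts widen the differences of low members by construction: Il6st reached -0.90, Il12a -1.74 and Il27ra -2.01 with 0.01. Over the 9130 genes, the fold rule called 212 lower and 28 higher, against 397 lower with a pseudocount of 0.1, 426 lower and 46 higher with 0.01, 640 lower and 143 higher at a threshold of 0.5, and 49 higher without AAV-Ctrl 2. The limma fit called 698 lower and 259 higher, against 406 higher with equal FPKM totals, 142 higher without the trend, and 0 in either direction with a minimum mean of 0.1 FPKM or no filter. The list medians depended on which genes entered. With equal FPKM totals they were -0.51 for ligands, 0.21 for receptors, 0.15 for signalling and 0.28 for effectors, and with no filter -0.058 for ligands, 0.00040 for receptors and -0.011 for effectors. With a minimum mean of 0.1 FPKM they were -0.34 for ligands, 0.015 for receptors and 0.092 for effectors. With either AAV-Ctrl library left out the effector median lay between 0.20 and 0.27, and the inducer median between 0.040 and 0.12. No paired analysis was possible because AAV-IL-27 has 1 library and shares only 1 replicate number with AAV-Ctrl. Fragment numbers limit what can be read from Il12a, Il27ra, Il23a and Il12rb2, with at most 14 estimated fragments in any library.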
